A study of Mus musculus with 20 samples.

Results

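The genes described here carry glucose through glycolysis or belong to the transcriptional response to low oxygen. They are 38 genes chosen by symbol from textbook membership, with earlier results of these data known. All 38 were found once among the 22102 entries of the time course table and once among the 42458 entries of the discovery table. By role they comprise 3 transporters of glucose or lactate, 8 genes of the upper part of glycolysis, 9 of the lower part down to lactate, 3 regulators of glycolytic flux and 15 other genes of the hypoxia response. All 38 passed the filters on low values and were tested in both tables.

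As background, cells take up glucose through GLUT transporters, trap it with hexokinase, commit it at phosphofructokinase and end at pyruvate, which lactate dehydrogenase can turn into lactate. When oxygen is low, prolyl hydroxylases of the Egln family stop marking the hypoxia-inducible factor HIF for destruction, and HIF then binds short response elements near genes for glycolysis, blood vessel growth, mitophagy and collagen modification. Pluripotent stem cells are known for a high rate of glycolysis even in the presence of oxygen, and heart muscle cells for a later move towards oxidative metabolism. Egln1 and Egln3 are both HIF targets and its oxygen-dependent inhibitors.

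RNA was measured in 20 mouse libraries, 12 in a differentiation time course and 8 in a discovery set of cell lines. For the time course, mouse embryonic stem cells (mESC) of the E14 line (strain 129/Ola) received lentiviral pLKO.1 hairpins under puromycin selection and were driven towards heart muscle. The depleted cultures carried hairpin A or hairpin B against Braveheart, a long noncoding RNA, the control culture carried a scrambled hairpin, and each of the 3 cultures gave 1 library at days 0, 3, 6 and 9. Both embryoid body formation and a directed protocol with added human VEGF, Activin A, BMP4, basic FGF and FGF10 are described for them. The labels do not say which of these a library came from. The discovery set held miPS (1 library of the fully reprogrammed line MCV8.1), wild type mESC of the lines E14 (129/Ola, 2 libraries) and v6.5 (129/svJae x C57BL/6, 2 libraries), partially reprogrammed fibroblasts (called partial, 1 library each of the lines 11.3/MCV6 and 11.5/MCV8) and embryonic fibroblasts (MEF, 1 library). The miPS and partial lines carried Oct4-GFP and retroviral Oct4, Sox2, c-myc and Klf4, the MEF carried Oct4-GFP, and all of them were 129/svJae x C57BL/6. Stem cells and miPS grew on irradiated fibroblasts that were removed by pre-plating, while the partial lines, each derived as 1 line, grew without feeders. The labels name no separate cultures behind the replicates, and p-values therefore reflect the spread of these samples, which may be technical.

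The depth was 6.80 to 11.1 M reads a library in the time course, as implied by its low FPKM values, and 7536503 to 23662593 expected counts in the discovery set. Summed over 7 pluripotency markers, the level was 4964 to 6959 FPKM at day 0, 2385 to 3448 FPKM at day 3, and 608 to 1038 FPKM at days 6 and 9 with hairpin A or the scrambled hairpin, but 4261 and 6992 FPKM at days 6 and 9 with hairpin B. Those 2 libraries stood apart, and results that rest on them are given with and without them. The 8 cardiomyocyte markers summed to 499 FPKM in the scrambled library of day 9, 88.4 FPKM in that of hairpin A and 18.5 FPKM in that of hairpin B. In the discovery set the same pluripotency markers summed to 2694 to 5264 TPM in miPS and mESC, 61.2 to 128 TPM in the partial lines and 2.95 TPM in MEF. The 7 fibroblast markers summed to 136 to 244 TPM in miPS and mESC, 3.18 to 18.5 TPM in the partial lines and 15505 TPM in MEF. In these bulk libraries fewer cells of a type and less RNA per cell cannot be told apart. The level of Braveheart was not analysed here.

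Promoter sequence is shown first for a few members, because many of them moved together and the HIF response element has a short known core. RefSeq windows of 300 bases (250 before and 50 after the start of transcription, build GRCm38.p6, a newer build than the mm9 of the expression tables) were matched by symbol or gene identifier for 36 members, which had 54 windows, and Slc2a3 and Ndrg1 are named only. The letters searched were ACGTG and GCGTG on both strands. ACGTG overlaps the E-box CACGTG of the MYC family, which holds the core on both strands and counts as 2 matches. At least 1 match lay in 42 of the 54 member windows (77.8%), against 14380 of 32851 windows of all genes (43.8%). Counted per gene, a match lay in a window of all 14 hypoxia response genes that matched and in 19 of 22 glycolytic genes, against 12628 of 27025 genes (46.7%). A gene with more windows has more chances in that count, and the members had more windows a gene. Per window the shares were 15 of 19 (78.95%) for hypoxia response genes and 27 of 35 (77.14%) for glycolytic genes, at a median GC of 69% and 61%. The member windows were richer in G and C, with a median of 62.2% against 52.7%, and among windows of at least 60% GC the shares were 28 of 31 (90.3%) and 69.2%. CACGTG itself lay in windows of 4 of the 36 members (11.1%), against 8.09% of all genes. A match is a description of these letters, not a site of binding. The 5 windows below belong to members on which the results turn, and capitals mark the core letters.
Bnip3 (chr7:138909457-138909756, minus strand): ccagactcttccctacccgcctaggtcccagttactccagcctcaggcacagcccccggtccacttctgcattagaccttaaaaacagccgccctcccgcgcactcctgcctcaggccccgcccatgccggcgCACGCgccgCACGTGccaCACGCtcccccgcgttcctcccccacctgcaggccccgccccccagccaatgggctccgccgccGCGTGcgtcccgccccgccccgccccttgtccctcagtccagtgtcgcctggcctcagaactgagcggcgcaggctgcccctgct
P4ha1 (chr10:59323046-59323345, plus strand): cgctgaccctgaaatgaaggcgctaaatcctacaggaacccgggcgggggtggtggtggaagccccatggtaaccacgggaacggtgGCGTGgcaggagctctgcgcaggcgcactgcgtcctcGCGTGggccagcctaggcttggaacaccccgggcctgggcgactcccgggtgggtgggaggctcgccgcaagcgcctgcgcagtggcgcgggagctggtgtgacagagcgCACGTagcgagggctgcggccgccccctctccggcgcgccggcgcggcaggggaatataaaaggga
Ldha (chr7:46845554-46845853, plus strand): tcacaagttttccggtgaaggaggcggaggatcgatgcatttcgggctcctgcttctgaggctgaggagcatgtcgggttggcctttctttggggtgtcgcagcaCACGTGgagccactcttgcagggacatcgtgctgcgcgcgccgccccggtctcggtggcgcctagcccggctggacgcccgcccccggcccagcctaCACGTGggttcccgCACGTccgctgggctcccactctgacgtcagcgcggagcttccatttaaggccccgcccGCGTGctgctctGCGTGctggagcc
Pfkp (chr13:6648722-6649021, minus strand): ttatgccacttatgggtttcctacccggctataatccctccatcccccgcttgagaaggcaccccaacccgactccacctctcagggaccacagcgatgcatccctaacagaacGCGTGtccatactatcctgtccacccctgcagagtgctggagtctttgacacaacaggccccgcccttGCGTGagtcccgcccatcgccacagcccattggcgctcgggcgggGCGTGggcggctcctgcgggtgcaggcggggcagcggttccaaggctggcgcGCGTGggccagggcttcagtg
Vegfa (chr17:46032328-46032627, minus strand): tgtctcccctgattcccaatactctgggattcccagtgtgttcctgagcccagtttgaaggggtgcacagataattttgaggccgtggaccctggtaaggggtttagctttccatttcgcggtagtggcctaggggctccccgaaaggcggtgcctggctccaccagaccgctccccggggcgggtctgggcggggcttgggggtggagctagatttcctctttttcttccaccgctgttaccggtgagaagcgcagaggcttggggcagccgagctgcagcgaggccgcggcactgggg
Bnip3 had 5 matches including the palindrome, Ldha 7, Pfkp 4 and P4ha1 3. The Vegfa window held no match, and a second Vegfa window of the table held 2.

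Across the time course the hypoxia response genes were low at day 3 and high at days 6 and 9. Relative to each gene's mean on the log2(FPKM + 1) scale, the median of the 15 hypoxia response genes at days 0, 3, 6 and 9 was 0.03, -0.65, 0.59 and 0.28 with hairpin A, -0.70, -0.48, 0.19 and 0.36 with hairpin B, and 0.14, -0.57, 0.76 and 0.48 with the scrambled hairpin. The 23 glycolytic genes moved less, and their medians were 0.07, -0.20, 0.07 and -0.35 with hairpin A, -0.21, -0.11, 0.27 and 0.13 with hairpin B, and 0.13, 0.02, 0.32 and -0.32 with the scrambled hairpin. The hypoxia medians were thus lowest at day 3 in the hairpin A and scrambled cultures and at day 0 in the hairpin B culture. At days 6 and 9 they were above 0 in all 3 cultures, while the glycolytic medians of day 9 were below 0 except with hairpin B.

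**Figure D1:**
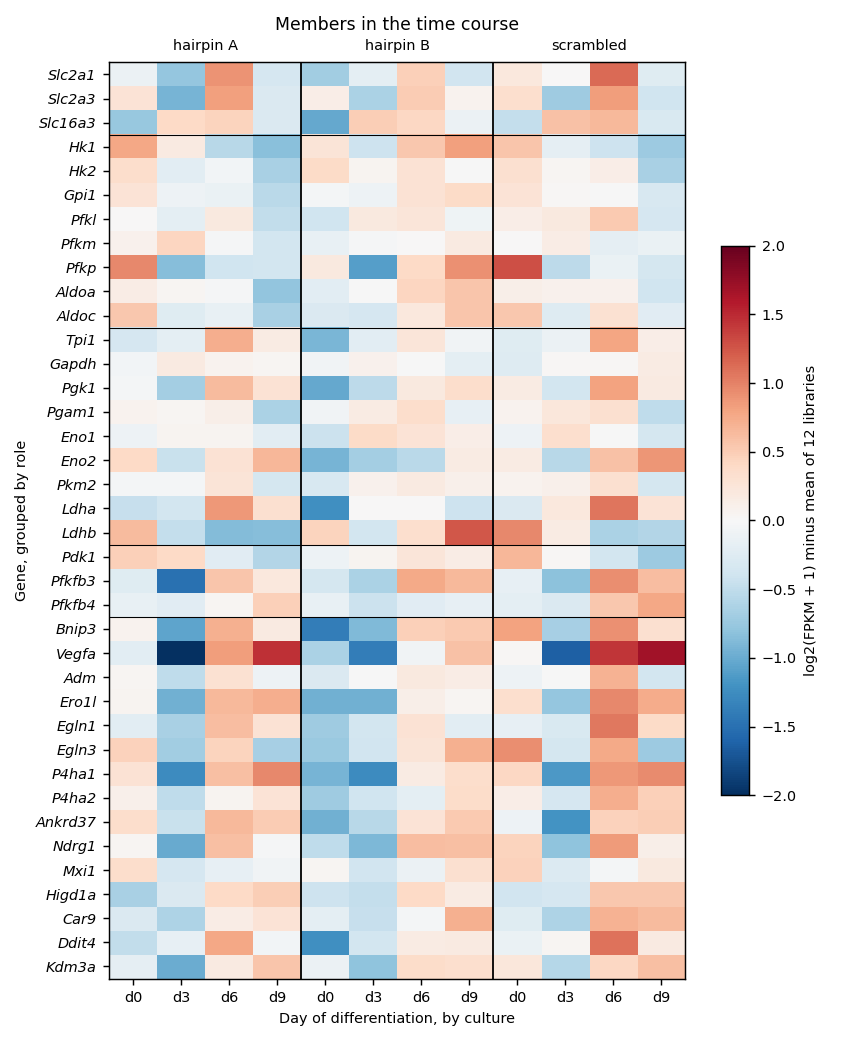
Level of each of the 38 genes (rows, grouped by role) in the 12 time course libraries (columns, days 0 to 9 of hairpin A, hairpin B and the scrambled hairpin), as log2(FPKM + 1) minus the mean of the gene over the 12 libraries. The lower block of hypoxia response genes is mostly blue at day 3 and mostly red at day 6. At day 9 Hk1, Pfkp and Ldhb are red with hairpin B and blue in both other cultures.

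**Figure D2:**
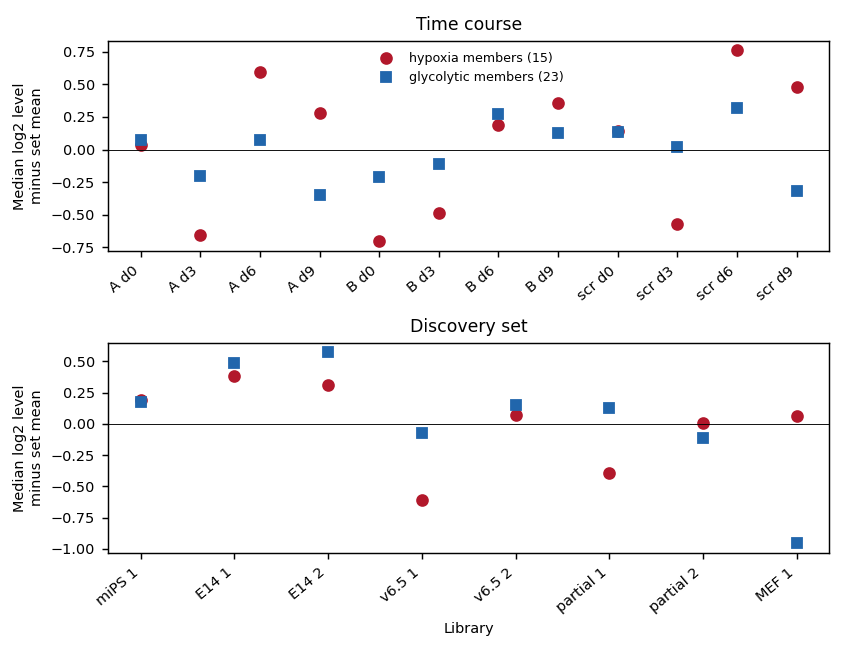
Median over the 15 hypoxia response genes (circles) and the 23 glycolytic genes (squares) of the log2 level minus the gene's mean over the set, for each time course library (above) and each discovery library (below). The 3 day 3 libraries have hypoxia medians of -0.48 to -0.65, and the MEF library has a glycolytic median of -0.95.

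By abundance, the glycolytic enzymes led. Over the 12 libraries Pkm2, pyruvate kinase, had the highest median level at 1901 FPKM, followed by Aldoa (1239.7 FPKM), Pgk1 (1034 FPKM) and Ldha (755 FPKM). The least abundant members were Adm (3.11 FPKM), Car9 (1.23 FPKM) and Pfkfb4 (1.12 FPKM). The ranges of neighbours among these 7 overlapped. Gapdh, at 146 to 197 FPKM in the time course, has many near-identical pseudogene copies, and its level here is uncertain because the authors' counting could split its reads among them. The 38 genes together made up 0.788% to 1.57% of the summed FPKM of a library, and the highest share was that of day 6 with the scrambled hairpin. Where 4 values follow each other, they belong to days 0, 3, 6 and 9 in that order, and positions are in mm9.

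At day 3 against day 0 the lactate exporter Slc16a3 rose, and 3 hypoxia response genes, the glucose transporter Slc2a3 and Pfkp fell. In the fit across all genes 1 member thus rose and 5 fell, where 3.26% of all genes tested rose and 2.78% fell (limma on log2(FPKM + 1), adjusted p below 0.05 over 14108 genes). Of the 15 hypoxia response genes 13 had a difference below 0, 3 of them past the test, and their median difference was -0.62 against 0.01 over all genes.
Slc16a3 (MCT4, chromosome 11, 120809797 to 120820314), which exports lactate, was at 46.5, 105, 108 and 64.8 FPKM with hairpin A, 38.6, 112, 106 and 72.9 FPKM with hairpin B and 56.8, 120.0, 125 and 64.2 FPKM with the scrambled hairpin. Every library of days 3 and 6 was above every library of day 0, and day 9 lay between. Its day 3 against day 0 difference was 1.25 ± 0.12 (SE, adjusted p = 0.000887).
Vegfa, the vascular endothelial growth factor (chromosome 17, 46153942 to 46169326), was at 21.6, 5.18, 46.0 and 71.6 FPKM with hairpin A, 16.0, 9.07, 24.1 and 38.3 FPKM with hairpin B and 25.8, 7.46, 69.9 and 83.4 FPKM with the scrambled hairpin. All 3 libraries of day 3 were below all others, and the highest values were those of days 6 and 9 with hairpin A and the scrambled hairpin. The day 3 against day 0 difference of Vegfa was -1.43 ± 0.33 (SE, adjusted p = 0.0367).
Slc2a3 (GLUT3, chromosome 6, 122677828 to 122692763), the high-affinity glucose transporter of stem cells and neurons, was at 602, 259, 882 and 406 FPKM with hairpin A, 546, 321, 706 and 522 FPKM with hairpin B and 626, 302, 884 and 378 FPKM with the scrambled hairpin. Its libraries of day 3 were the lowest in each culture and those of day 6 the highest. At day 3 against day 0 Slc2a3 changed by -1.01 ± 0.15 (SE, adjusted p = 0.00758).
Kdm3a, a histone demethylase induced by HIF (chromosome 6, 71538965 to 71582899), was at 40.1, 22.6, 51.8 and 67.4 FPKM with hairpin A, 42.2, 25.7, 59.1 and 57.8 FPKM with hairpin B and 53.5, 30.5, 61.5 and 70.2 FPKM with the scrambled hairpin. No day 3 library overlapped with any other day, and the difference from day 0 was -0.76 ± 0.11 (SE, adjusted p = 0.00482).
Mxi1, a MYC antagonist (chromosome 19, 53384995 to 53450300), was at 17.2, 10.3, 11.7 and 12.5 FPKM with hairpin A, 13.6, 9.93, 12.1 and 16.8 FPKM with hairpin B and 18.7, 10.8, 12.8 and 15.3 FPKM with the scrambled hairpin. It was highest at day 0 with hairpin A and the scrambled hairpin and at day 9 with hairpin B, and its day 3 against day 0 difference was -0.62 ± 0.14 (SE, adjusted p = 0.0339).
Pfkp, the platelet-type phosphofructokinase (chromosome 13, 6579119 to 6647970), was at 56.3, 15.3, 21.3 and 21.7 FPKM with hairpin A, 32.7, 12.7, 37.6 and 54.7 FPKM with hairpin B and 70.8, 19.5, 25.7 and 22.1 FPKM with the scrambled hairpin. All day 3 libraries were below all day 0 libraries, with a difference of -1.64 ± 0.40 (SE, adjusted p = 0.0437). At days 6 and 9 it was above all day 3 values, by most with hairpin B.
Leaving out the hairpin A culture or the scrambled culture left 0 members called at day 3 against day 0, and leaving out the hairpin B culture gave 22. Without the hairpin B libraries of days 6 and 9 the count was 13, and without that of day 0 it was 11. For comparisons of days with libraries left out, here and below, the share of all genes called is not given. Those counts of members therefore have no background to be read against.

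At day 6 against day 3, 9 of the 15 hypoxia response genes rose, and so did both glucose transporters. In all 14 of the 38 members rose and 0 fell, where 3.03% of all genes tested rose and 2.73% fell. All 15 hypoxia response genes had a difference above 0, with a median of 1.09 against 0.06 over all genes. The summed level of 5 erythroid markers (globins and their regulators) was 0.536 to 1.05 FPKM at day 3 and at day 6 was 118 FPKM with hairpin A, 2.76 FPKM with hairpin B and 552 FPKM with the scrambled hairpin. With hairpin B none of these markers reached 1 FPKM at day 6. All 15 hypoxia response genes were higher at day 6 than at day 3 in each culture. The median difference was 1.15 with hairpin A, 0.82 with hairpin B and 1.31 with the scrambled hairpin. Each culture gave 1 library a day, and the part of the erythroid markers in the rise was not tested. Of the glycolytic genes 2 transporters, 2 lower-pathway enzymes and 1 regulator rose, and 0 of 8 upper-pathway genes did. An unadjusted p below 0.05 was reached by 19 of 38 members and by 27.2% of all genes.

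**Figure D3:**
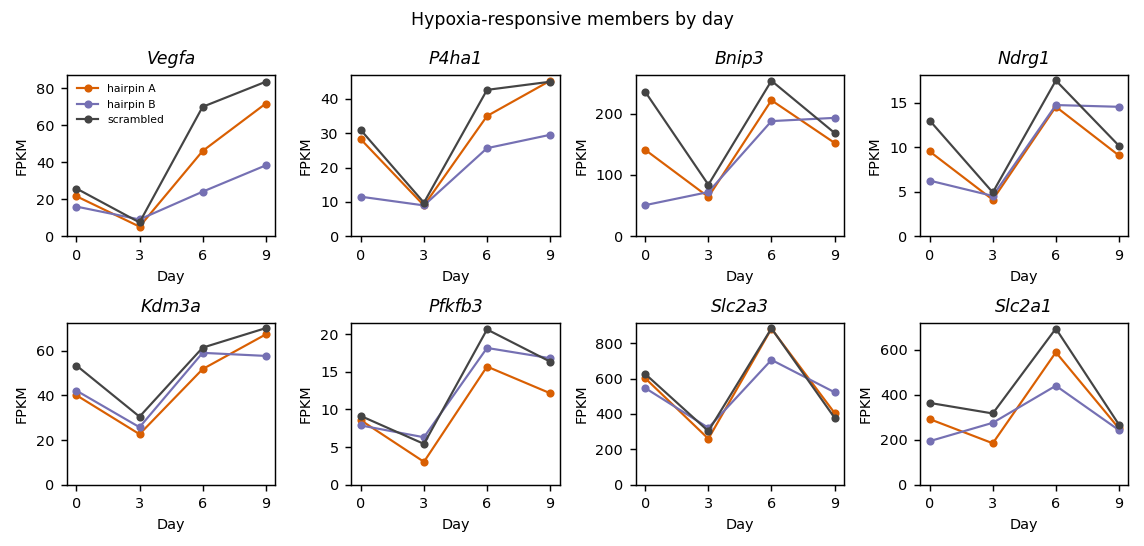
FPKM (vertical axes, from 0) of 8 members against day of differentiation (horizontal axes), 1 line for each of the 3 cultures with 1 library a day. Every panel has its day 6 values above its day 3 values in all 3 cultures, and Vegfa and P4ha1 are lower with hairpin B than in the other 2 cultures at days 6 and 9.

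Vegfa had the largest difference at 2.44 ± 0.33 (SE, adjusted p = 0.00849), with all 3 libraries of day 6 above all 3 of day 3. Among the day 6 libraries that of hairpin B was the lowest.
P4ha1, a catalytic subunit of the collagen prolyl hydroxylase (chromosome 10, 58786043 to 58836051), was at 28.2, 8.96, 35.01 and 45.3 FPKM with hairpin A, 11.5, 8.97, 25.6 and 29.5 FPKM with hairpin B and 30.9, 9.78, 42.6 and 45.0 FPKM with the scrambled hairpin. The day 3 libraries lay within 1 FPKM of each other and below all others, and the difference at day 6 was 1.76 ± 0.30 (SE, adjusted p = 0.0146).
Pfkfb3, which makes the allosteric activator of phosphofructokinase (chromosome 2, 11393059 to 11475556), was at 8.56, 3.03, 15.7 and 12.2 FPKM with hairpin A, 7.87, 6.30, 18.2 and 16.8 FPKM with hairpin B and 9.13, 5.41, 20.7 and 16.4 FPKM with the scrambled hairpin. Days 6 and 9 were above days 0 and 3 in every culture, and the day 6 against day 3 difference was 1.73 ± 0.21 (SE, adjusted p = 0.00557). For this gene 10 of 12 values carried the authors' status for low data, the only such values among the 456 of the members.
Ndrg1, a stress-responsive gene induced by hypoxia (chromosome 15, 66760879 to 66801203), was at 9.52, 4.10, 14.5 and 9.07 FPKM with hairpin A, 6.24, 4.53, 14.7 and 14.5 FPKM with hairpin B and 13.0, 4.92, 17.5 and 10.2 FPKM with the scrambled hairpin. Day 3 was lowest in each culture, and the day 6 libraries were above it by 1.59 ± 0.23 (SE, adjusted p = 0.00946).
Bnip3, a mitophagy receptor of the mitochondrial outer membrane (chromosome 7, 146082518 to 146101189), was at 141, 64.2, 222 and 152 FPKM with hairpin A, 50.8, 72.1, 188 and 193 FPKM with hairpin B and 236, 84.0, 254 and 169 FPKM with the scrambled hairpin. The 3 day 6 libraries were above all day 3 libraries, with a difference of 1.58 ± 0.38 (SE, adjusted p = 0.0441), while day 0 ran over almost the whole range.
Ero1l, an oxidase of the endoplasmic reticulum for disulfide bonds (chromosome 14, 45903995 to 45938202), was at 41.7, 20.3, 64.0 and 67.7 FPKM with hairpin A, 20.3, 20.1, 44.0 and 41.3 FPKM with hairpin B and 51.4, 23.2, 79.2 and 68.2 FPKM with the scrambled hairpin. Days 6 and 9 were above day 3 in each culture, and the day 6 against day 3 difference was 1.48 ± 0.28 (SE, adjusted p = 0.0222).
Egln1 (PHD2), the main prolyl hydroxylase that marks HIF (chromosome 8, 127432486 to 127473154), was at 18.5, 13.3, 33.5 and 26.6 FPKM with hairpin A, 12.7, 16.5, 26.4 and 18.6 FPKM with hairpin B and 19.1, 17.3, 46.1 and 28.6 FPKM with the scrambled hairpin. It was highest at day 6 in every culture, and its difference from day 3 was 1.09 ± 0.19 (SE, adjusted p = 0.0161).
Slc2a1 (GLUT1, chromosome 4, 118781349 to 118809934), the basal glucose transporter, was at 291, 183, 588 and 249.6 FPKM with hairpin A, 193, 274, 439 and 242 FPKM with hairpin B and 363, 316, 693 and 266 FPKM with the scrambled hairpin. Day 6 stood above every other day, by 1.16 ± 0.20 (SE, adjusted p = 0.0175) over day 3, and Slc2a3 and Kdm3a, whose values are above, rose by 1.48 ± 0.15 (SE, adjusted p = 0.00263) and 1.11 ± 0.11 (SE, adjusted p = 0.0023).
The other 4 that rose were Pgk1, phosphoglycerate kinase, by 1.07 (adjusted p = 0.0429), Tpi1, triosephosphate isomerase, by 0.76 (adjusted p = 0.039), the mitochondrial membrane protein Higd1a by 0.81 (adjusted p = 0.0134) and the carbonic anhydrase Car9 by 0.84 (adjusted p = 0.0425). Car9 stayed low, at 0.570 to 2.97 FPKM in the 12 libraries. The hypoxia response genes short of the threshold were Ankrd37, at 1.19 (adjusted p = 0.0566), Egln3, at 0.97 (adjusted p = 0.2), the mTOR inhibitor Ddit4, at 0.84 (adjusted p = 0.0615), P4ha2, at 0.61 (adjusted p = 0.123), the vasodilator peptide Adm, at 0.57 (adjusted p = 0.135), and Mxi1, at 0.22 (adjusted p = 0.323).
Leaving out the hairpin A or the scrambled culture left 0 members called at day 6 against day 3, and leaving out the hairpin B culture gave 27. All of the 14 members were still called without the hairpin B libraries of days 6 and 9, when the count was 21.

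At day 9 against day 6 no member passed the test, and 0.0425% of all genes tested did (6 of 14108). The 3 transporters had the lowest unadjusted p. An unadjusted p below 0.05 was reached by 11 of 38 members and by 14.1% of all genes (1985), and 27 of the 38 had a difference below 0, with a median of -0.26 against 0.03 over all genes. Slc2a1 was at 249.6 and 242 FPKM at day 9 with hairpins A and B and 266 FPKM with the scrambled hairpin, and its difference was -1.16 ± 0.20 (SE, adjusted p = 0.0761). For Slc2a3 the difference was -0.92 ± 0.15 (SE, adjusted p = 0.0761), for Slc16a3 -0.74 ± 0.12 (SE, adjusted p = 0.0761) and for Pgam1, phosphoglycerate mutase, -0.69 ± 0.13 (SE, adjusted p = 0.0864). These 4 had the largest differences among members picked for having no overlap between the day 9 and day 6 libraries. Their lack of overlap was therefore fixed by the choice, and in all 4 day 9 was the lower day. Without the hairpin B culture 18 members were called (1 higher, 17 lower). Without its libraries of days 6 and 9 alone 9 were called, all lower and these 4 among them, and without either other culture 0. These counts too stand without the share of all genes called in the same fits, so they are no result about the members in particular.

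Set against day 0, the glucose transporter Slc2a1, the enzymes Tpi1 and Ldha and the lactate exporter Slc16a3 rose at day 6. Of the 38 members 8 rose and 0 fell at day 6 against day 0, where 4.97% of all genes tested rose and 3.71% fell. In transport and glycolysis, Slc2a1 rose by 1.04 (adjusted p = 0.0205), Slc16a3 by 1.25 (adjusted p = 0.00136), Tpi1 by 1.08 (adjusted p = 0.0107), Ldha by 1.303 (adjusted p = 0.027) and Pfkfb3 by 1.01 (adjusted p = 0.0248). In the hypoxia response, Egln1 rose by 1.02 (adjusted p = 0.0171), Ddit4 by 1.29 (adjusted p = 0.014) and Higd1a by 0.93 (adjusted p = 0.00711).
Ldha, which turns pyruvate into lactate (chromosome 7, 54101173 to 54110996), was at 545, 577, 1361 and 935 FPKM with hairpin A, 319, 755, 754 and 562 FPKM with hairpin B and 614, 863, 1568 and 903 FPKM with the scrambled hairpin. The hairpin A and scrambled libraries of day 6 were the 2 highest, and hairpin B at day 6 was as at day 3.
Tpi1 (chromosome 6, 124760609 to 124764314) was at 331, 364, 693 and 469.5 FPKM with hairpin A, 221, 359, 494 and 397 FPKM with hairpin B and 353, 385, 718 and 458 FPKM with the scrambled hairpin. Every day 6 library was above every library of days 0 and 3.
Ddit4 (chromosome 10, 59412422 to 59414518) was at 74.3, 94.1, 181 and 101 FPKM with hairpin A, 44.6, 81.2, 118 and 119.7 FPKM with hairpin B and 96.0, 108, 225 and 119 FPKM with the scrambled hairpin. The day 6 libraries were above all of day 0, and the lowest library was day 0 with hairpin B.
Higd1a (chromosome 9, 121757677 to 121767118) was at 5.27, 7.07, 12.0 and 12.9 FPKM with hairpin A, 6.35, 6.04, 11.9 and 10.1 FPKM with hairpin B and 6.58, 6.84, 13.4 and 13.3 FPKM with the scrambled hairpin. Days 6 and 9 did not overlap with days 0 and 3. Without the hairpin A or the scrambled culture 0 members were called at day 6 against day 0, without hairpin B 24 (16 higher, 8 lower), and without its libraries of days 6 and 9 alone 22. Without its day 0 library 7 were called, and Ldha was the one lost (1.08, adjusted p = 0.0579).

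At day 9 against day 0, 4 hypoxia response genes rose, and the hexokinase Hk2 and the mutase Pgam1 fell. In all 6 members rose and 2 fell, where 10.3% of all genes tested rose and 6.22% fell. Of the 15 hypoxia response genes 13 had a difference above 0. Read against those shares, the count of members that fell is near the background and that of members that rose not far above it. Vegfa rose by 1.52 ± 0.33 (SE, adjusted p = 0.0244), and Higd1a (0.89 (adjusted p = 0.0101)), Car9 (0.78 (adjusted p = 0.0355)), Pfkfb3 (0.75 (adjusted p = 0.0436)), Kdm3a (0.52 (adjusted p = 0.0217)) and Slc16a3 (0.52 (adjusted p = 0.0308)) rose too. Hk2, the inducible hexokinase (chromosome 6, 82675020 to 82724448), changed by -0.79 ± 0.18 (SE, adjusted p = 0.0268). It was at 58.7, 39.3, 44.0 and 29.0 FPKM with hairpin A, 60.2, 47.7, 56.2 and 45.4 FPKM with hairpin B and 57.6, 47.1, 50.2 and 28.8 FPKM with the scrambled hairpin, and all day 9 libraries were below all day 0 libraries. Pgam1 (chromosome 19, 41986360 to 41993155) was at 549, 537, 568 and 338 FPKM with hairpin A, 497, 586, 664 and 468 FPKM with hairpin B and 549, 611, 652 and 368 FPKM with the scrambled hairpin, and its difference was -0.45 ± 0.13 (SE, adjusted p = 0.0479). All 8 upper-pathway genes had a difference below 0, from -0.79 for Hk2 to -0.09 for Pfkm, and 1 of them passed the test. With culture as a replicate block, since the libraries of a culture come from 1 line, 15 members were called (13 higher, 2 lower), the 8 among them. Leaving out the hairpin A or the scrambled culture gave 0, leaving out hairpin B 28 (14 higher, 14 lower), leaving out its libraries of days 6 and 9 alone 25, and leaving out its day 0 library 2, Higd1a and Kdm3a, with Vegfa, Hk2 and Pgam1 among the 6 lost (adjusted p = 0.0555 to 0.0874).

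At day 9 the hairpin B library was above both other cultures in 25 of 38 members and below both in 12, against 40.9% and 49.4% of all genes tested. It was above both in 17 of the 23 glycolytic genes and in 8 of the 15 hypoxia response genes. These counts of single libraries carry no test, and the genes described next were chosen after their values were seen.

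**Figure D4:**
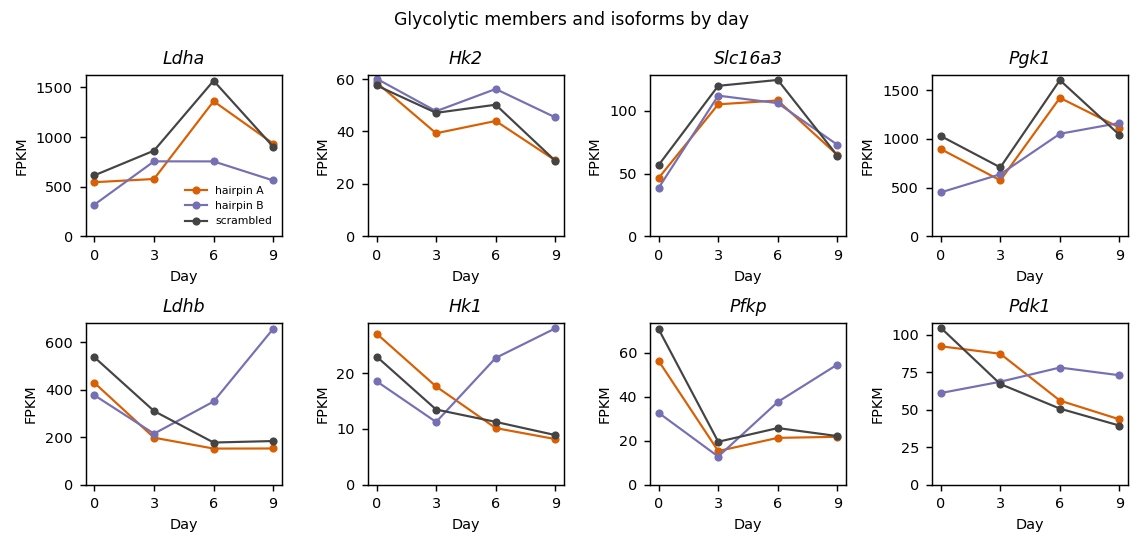
FPKM (vertical axes, from 0) of 8 glycolytic members against day of differentiation, 1 line for each culture with 1 library a day. Ldhb, Hk1, Pfkp and Pdk1 end at day 9 with hairpin B above both other cultures. Slc16a3 is lowest at day 0 and next lowest at day 9 in all 3 cultures.

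Ldhb, the lactate dehydrogenase subunit of oxidative tissues (chromosome 6, 142438768 to 142456463), was at 429, 198, 152 and 152 FPKM with hairpin A, 377, 215, 351 and 657 FPKM with hairpin B and 537, 310.3, 177 and 184 FPKM with the scrambled hairpin. At day 9 the hairpin B library was the highest of the 12, and the hairpin A and scrambled libraries were below all of day 0.
Hk1, the constitutive hexokinase (chromosome 10, 61731602 to 61842656), was at 27.1, 17.6, 10.1 and 8.15 FPKM with hairpin A, 18.5, 11.2, 22.7 and 28.0 FPKM with hairpin B and 23.0, 13.4, 11.2 and 8.87 FPKM with the scrambled hairpin. Its level was lower at each later day with hairpin A and the scrambled hairpin, and with hairpin B it was highest at day 9.
Pdk1, the kinase that inhibits pyruvate dehydrogenase (chromosome 2, 71711328 to 71741914), was at 92.4, 87.4, 56.1 and 43.5 FPKM with hairpin A, 61.1, 68.7, 78.2 and 73.0 FPKM with hairpin B and 105, 67.2, 50.7 and 39.4 FPKM with the scrambled hairpin. Its day 9 level with hairpin B was above day 0 of the same culture, whereas in both other cultures it was the lowest of the course.
Aldoa, the main aldolase (chromosome 7, 133938748 to 133943961), was at 1315, 1219, 1166 and 685 FPKM with hairpin A, 1030.5, 1179, 1601 and 1753 FPKM with hairpin B and 1285, 1269, 1261 and 901 FPKM with the scrambled hairpin. Here too the hairpin B library of day 9 was the highest of the 12.
With hairpin B, Bnip3 was at 193 FPKM at day 9 and 50.8 FPKM at day 0, and P4ha1 at 29.5 and 11.5 FPKM. Egln3 (PHD3, chromosome 12, 55279968 to 55304861) was at 24.7, 10.6, 24.7 and 10.8 FPKM with hairpin A, 10.3, 13.3, 21.5 and 29.6 FPKM with hairpin B and 34.6, 13.6, 30.8 and 10.4 FPKM with the scrambled hairpin. It was at its lowest at days 3 and 9 in both other cultures and at its highest at day 9 with hairpin B. The part of the high pluripotency marker sums in these values was not tested.

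The balance of the family pairs differed between days. In levels per length, Ldha over Ldhb was 1.27, 2.92, 8.96 and 6.14 with hairpin A, 0.846, 3.52, 2.15 and 0.856 with hairpin B and 1.143, 2.78, 8.84 and 4.92 with the scrambled hairpin. The ratio was highest at day 6, except with hairpin B, where it was highest at day 3 and at day 9 was close to its day 0 value. Hk2 over Hk1 was 2.17, 2.24, 4.35 and 3.56 with hairpin A, 3.25, 4.26, 2.48 and 1.62 with hairpin B and 2.51, 3.503, 4.47 and 3.25 with the scrambled hairpin, and Hk2 was the more abundant in all 12 libraries. Slc2a3 was more abundant than Slc2a1 in 11 of the 12, with ratios of 1.17 to 2.83, and the exception was day 3 with the scrambled hairpin at 0.957. Among the phosphofructokinases Pfkl, the liver type, was the most abundant in every library, and the ratio of Pfkl to Pfkp was 1.33 to 1.99 at day 0 and 4.90 to 7.77 at day 3. Pfkl itself was at 86.8, 74.8, 98.1 and 61.2 FPKM with hairpin A, 64.9, 99.1, 101 and 81.2 FPKM with hairpin B and 94.5, 99.0, 124 and 68.1 FPKM with the scrambled hairpin. It was lowest at day 9 with hairpin A and highest at day 6 with the scrambled hairpin. Pfkm, the muscle type, was at 31.3, 40.1, 28.9 and 22.7 FPKM with hairpin A, 26.4, 29.1, 29.7 and 33.4 FPKM with hairpin B and 29.5, 32.9, 25.8 and 26.7 FPKM with the scrambled hairpin. Its 12 values stayed between 22.7 and 40.1 FPKM, and it passed no test of the course. Aldoa exceeded Aldoc, the brain-enriched aldolase, by 45.2 to 79.8 times. Aldoc was at 28.5, 16.2, 17.4 and 12.0 FPKM with hairpin A, 15.6, 15.0, 22.4 and 28.7 FPKM with hairpin B and 28.4, 15.9, 24.0 and 16.3 FPKM with the scrambled hairpin, with differences of -0.54 at day 3 against day 0 and 0.40 at day 6 against day 3, neither past the test. Eno1 exceeded Eno2, the neuron-enriched enolase, by 37.2 to 217 times. Eno2 was at 9.17, 4.68, 8.41 and 11.3 FPKM with hairpin A, 3.05, 3.79, 4.32 and 7.59 FPKM with hairpin B and 7.67, 4.22, 10.5 and 13.2 FPKM with the scrambled hairpin, and Eno1 at 586, 658, 657 and 543 FPKM with hairpin A, 467, 823, 764 and 689.9 FPKM with hairpin B and 586, 799, 626 and 492 FPKM with the scrambled hairpin. Neither enolase passed a test of the course. The members not yet given were Pgk1 (449.9 to 1602 FPKM), which rose at day 6 as given above, the upper-pathway isomerase Gpi1 (147 to 279 FPKM), Pkm2 (1409 to 2263 FPKM), Pfkfb4 (0.765 to 3.06 FPKM), Ankrd37, an ankyrin repeat protein induced by hypoxia (2.78 to 12.6 FPKM), P4ha2, the second collagen prolyl hydroxylase subunit (4.70 to 14.3 FPKM), and Adm (1.91 to 5.71 FPKM). Of the last 6 none passed a test between days.

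As a description of likeness, the pairs of members with the highest Pearson correlation of log2(FPKM + 1) over the 12 libraries were Ero1l with P4ha1 (r = 0.977), Ddit4 with Tpi1 (r = 0.962) and Bnip3 with Pgk1 (r = 0.958). The libraries share days and cultures, so these values carry no test.

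Depletion of Braveheart was set against the scrambled culture within each day, with hairpins A and B as the 2 replicates. No member passed the test at any of the 4 days (limma, adjusted p = 0.873 to 1). Of all genes tested 0.0213% were called at day 0, 0.0284% at day 3, 0.0425% at day 6 and 0.0354% at day 9, which is 3, 4, 6 and 5 of 14108, and at an unadjusted p below 0.05 there were 66, 37, 148 and 199 genes. Among the members the counts with an unadjusted p below 0.05 were 1, 0, 0 and 0. Leaving out the hairpin A or the hairpin B library of a day also left 0 members called, in fits with 3 residual degrees of freedom in which both sides of that day are 1 library and which called 4 to 157 of all genes. The design has 4 residual degrees of freedom and 1 scrambled library a day, which is assumed to vary like the hairpin pairs. Those pairs give the spread, and they include the hairpin B libraries of days 6 and 9 that stood apart. A p above the threshold does not show that depletion had no effect on a member.
At day 0 the hairpin libraries were below the scrambled library in 35 of 38 members by their mean, with a median of -0.35 against 0.01 over all genes. With hairpin A alone 26 of 38 were below, with a median of -0.10, and with hairpin B alone 34, with a median of -0.54. Of all 14108 genes tested, 6658 were below with hairpin A and 7016 with hairpin B. All members of a day share 1 scrambled library, so such counts are not independent. Among members with 1 direction in both hairpins, the 4 with the largest differences were hypoxia response genes. Bnip3 was at 141 and 50.8 FPKM with hairpins A and B, against 236 FPKM with the scrambled hairpin, a difference of -1.46 ± 0.54 (SE, adjusted p = 1) with an unadjusted p of 0.0318. Egln3 was at 24.7 and 10.3 FPKM with hairpins A and B, against 34.6 FPKM with the scrambled hairpin, a difference of -1.06. Ero1l was at 41.7 and 20.3 FPKM with hairpins A and B, against 51.4 FPKM with the scrambled hairpin, a difference of -0.80. For P4ha1, at 28.2 and 11.5 FPKM with hairpins A and B, against 30.9 FPKM with the scrambled hairpin, it was -0.74. In all 4 the hairpin B library was the lowest, and hairpin A lay nearer to the scrambled library than to hairpin B on the log2 scale.
Hairpin B at day 0 was at least 2-fold below both other cultures in 5 of 38 members (Bnip3, P4ha1, Egln3, Eno2 and Ero1l), and in 0.56% of all genes tested (79 of 14108). That comparison of single libraries has no replicate and was made after the values were seen. The pluripotency markers of that library summed to 4964 FPKM, against 6959 FPKM with hairpin A and 5703 FPKM with the scrambled hairpin, and their part in this was not tested.
At day 3, 32 of 38 members were below the scrambled library by the mean of both hairpins, with a median of -0.12 against 0.00 over all genes. With hairpin A alone 29 of 38 were below, and with hairpin B alone 28. Of all 14108 genes tested, 6609 were below with hairpin A and 7497 with hairpin B. The 4 largest differences with 1 direction in both hairpins were those of Ankrd37, Ldhb, Slc2a1 and Pfkp. Ankrd37 was at 5.34 and 4.87 FPKM with hairpins A and B, against 2.78 FPKM with the scrambled hairpin, a difference of 0.69. Ldhb was at 198 and 215 FPKM with hairpins A and B, against 310.3 FPKM with the scrambled hairpin, a difference of -0.59. Ankrd37 was the only one of the 4 above the scrambled library. Slc2a1 was at 183 and 274 FPKM with hairpins A and B, against 316 FPKM with the scrambled hairpin, a difference of -0.49, and Pfkp at 15.3 and 12.7 FPKM with hairpins A and B, against 19.5 FPKM with the scrambled hairpin, a difference of -0.45. The unadjusted p of these 4 was 0.206 or more.
At day 6 all 15 hypoxia response genes were below the scrambled library by the mean of both hairpins, with a median of -0.45, against -0.02 over all genes. The hairpin B library of that day stood apart. With hairpin A alone 14 of 15 were below, with a median of -0.30 against -0.00245 over all genes, and with hairpin B alone 15, with a median of -0.51. Of all 14108 genes tested, 7128 were below with hairpin A and 7685 with hairpin B. Vegfa was at 46.0 and 24.1 FPKM with hairpins A and B, against 69.9 FPKM with the scrambled hairpin, a difference of -1.05 ± 0.54 (SE, adjusted p = 1). P4ha2 was at 8.59 and 7.10 FPKM with hairpins A and B, against 14.3 FPKM with the scrambled hairpin, a difference of -0.80. Eno2 was at 8.41 and 4.32 FPKM with hairpins A and B, against 10.5 FPKM with the scrambled hairpin, a difference of -0.70. For Car9, at 1.68 and 1.36 FPKM with hairpins A and B, against 2.91 FPKM with the scrambled hairpin, it was -0.64. These 4 had the largest differences among members picked for 1 direction in both hairpins, so the likeness of the hairpins was fixed by the choice. In all 4 that direction was below the scrambled library, and the unadjusted p was 0.0672 or more.
At day 9 the directions were mixed, with 21 members above and 17 below the scrambled library and a median of 0.03 against -0.07 over all genes. The hairpin B library stood apart here too. With hairpin A alone 25 of 38 were below, with a median of -0.10, and with hairpin B alone 13, with a median of 0.17. Of all 14108 genes tested, 7935 were below with hairpin A and 7781 with hairpin B. The 4 largest differences with 1 direction in both hairpins were those of Egln3, Vegfa, Pfkfb4 and Pdk1. Egln3 was at 10.8 and 29.6 FPKM with hairpins A and B, against 10.4 FPKM with the scrambled hairpin, a difference of 0.74. Vegfa was at 71.6 and 38.3 FPKM with hairpins A and B, against 83.4 FPKM with the scrambled hairpin, a difference of -0.66. Hairpin B was farther from the scrambled library than hairpin A in all 4. Pfkfb4 was at 2.29 and 1.11 FPKM with hairpins A and B, against 3.06 FPKM with the scrambled hairpin, a difference of -0.63, and Pdk1 at 43.5 and 73.0 FPKM with hairpins A and B, against 39.4 FPKM with the scrambled hairpin, a difference of 0.51. The difference between the depletion effect of each later day and that of day 0 passed the test in 0 of 38 members, also with 0 at an unadjusted p below 0.05.

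In the discovery set 8 of the 23 glycolytic members were higher and 1 was lower in mESC than in MEF. Among all genes tested 13.2% were higher and 15.4% lower. The MEF library had a glycolytic median of -0.95 from the mean of the set, against -0.11 to 0.57 in the other libraries, while its hypoxia median of 0.06 lay among those of the other libraries (-0.61 to 0.38). The 38 genes made up 1.55% of all TPM in miPS, 1.25% to 1.76% in mESC, 1.35% and 1.06% in the partial lines and 0.687% in MEF. MEF and miPS are 1 library each and were assumed to vary like the pairs, so their differences have no replicate check of their own. The 3 comparisons among mESC, partial lines and MEF share libraries, and their values are given side by side. Their log2 differences come from the fits of expected counts and need not equal the ratios of the TPM values printed beside them.

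**Figure D5:**
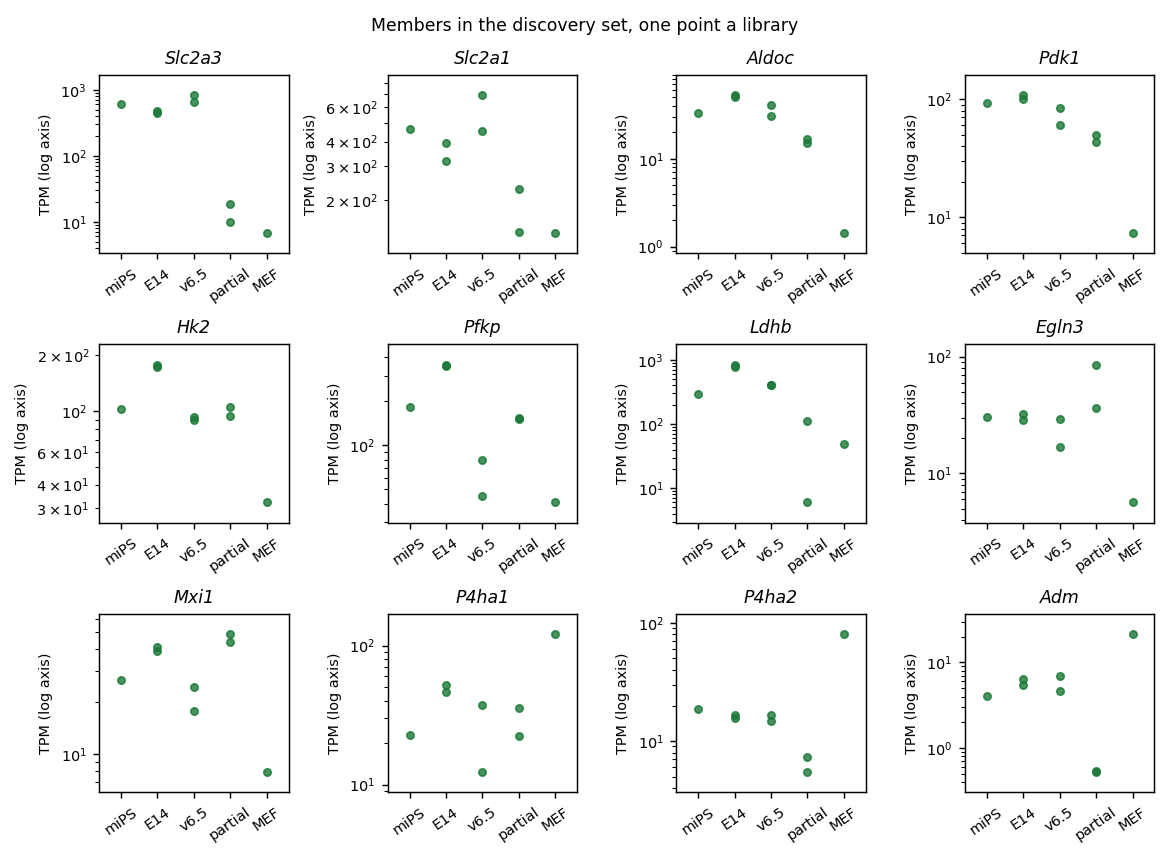
TPM (vertical log axes) of 12 members in the discovery set, 1 point a library, with miPS, E14, v6.5, the partial lines and MEF from left to right. Slc2a3 is at 444 to 830 TPM in mESC, at 605 TPM in miPS and below 20 TPM in the partial lines and MEF, while P4ha1, P4ha2 and Adm are highest in MEF.

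At mESC against MEF 9 members rose and 4 fell (edgeR's quasi-likelihood test, adjusted p below 0.05), where 13.2% of all 16773 genes tested rose and 15.4% fell. Of 8 upper-pathway genes 5 were higher in mESC, and of 15 hypoxia response genes 1 was higher and 3 were lower. At partial against MEF 7 rose and 3 fell (4.95% and 8.87% of all genes), and at mESC against partial 6 rose and 3 fell (16.1% and 13.6% of all genes). Read against those shares, the mESC against partial counts are near the background for members that rose and below it for those that fell. In the comparisons with MEF the counts of members that fell are also near or below the background.
Slc2a3 was high in the fully pluripotent lines. It was at 605 TPM in miPS, 472 and 444 TPM in E14, 829.8 and 659 TPM in v6.5, 18.6 and 9.77 TPM in the partial lines and 6.80 TPM in MEF. All miPS and mESC libraries were far above the partial lines and MEF, with no overlap. The mESC against MEF log2 difference was 6.82 ± 0.73 (SE, adjusted p = 0.00269) and the mESC against partial difference 6.00 ± 0.50 (SE, adjusted p = 0.00155). Slc2a1 was at 465 TPM in miPS, 395 and 319.5 TPM in E14, 692 and 451 TPM in v6.5, 228 and 138 TPM in the partial lines and 137 TPM in MEF, and its mESC against MEF difference of 1.42 ± 0.52 (SE, adjusted p = 0.0853) missed the threshold. Slc2a3 over Slc2a1 was 1.301 in miPS, 1.19 to 1.46 in mESC, 0.0819 and 0.0706 in the partial lines and 0.0498 in MEF. Slc16a3 was at 83.4 TPM in miPS, 90.7 and 76.8 TPM in E14, 106 and 159.9 TPM in v6.5, 120.5 and 108 TPM in the partial lines and 38.8 TPM in MEF, above MEF in all others, with 1.21 (adjusted p = 0.0349) for mESC and 1.43 (adjusted p = 0.0417) for the partial lines.
In upper glycolysis MEF had the lowest level of Hk2, Pfkl, Pfkm, Pfkp and Aldoc. Aldoc was at 33.4 TPM in miPS, 52.8 and 50.2 TPM in E14, 40.3 and 31.0 TPM in v6.5, 16.6 and 14.9 TPM in the partial lines and 1.44 TPM in MEF, in a stepwise order of mESC and miPS, partial lines and MEF with no overlap. The differences of Aldoc were 5.49 ± 0.59 (SE, adjusted p = 0.00269) for mESC against MEF, 4.13 ± 0.57 (SE, adjusted p = 0.00796) for partial against MEF and 1.36 ± 0.31 (SE, adjusted p = 0.0228) for mESC against partial. Hk2 was at 103 TPM in miPS, 173 and 178 TPM in E14, 93.1 and 90.0 TPM in v6.5, 105 and 94.4 TPM in the partial lines and 32.1 TPM in MEF, with differences of 1.65 (adjusted p = 0.0126) for mESC and 1.46 (adjusted p = 0.0327) for the partial lines against MEF. Hk1 was at 39.5 TPM in miPS, 77.1 and 84.3 TPM in E14, 34.6 and 34.5 TPM in v6.5, 58.8 and 77.9 TPM in the partial lines and 46.7 TPM in MEF, and Hk2 over Hk1 was below 1 only in MEF, at 0.687, against 1.21 to 2.69 in the 7 other libraries. Pfkp was at 184 TPM in miPS, 351 and 357 TPM in E14, 45.0 and 79.4 TPM in v6.5, 151 and 154 TPM in the partial lines and 40.8 TPM in MEF. It was the only member called at E14 against v6.5, at 2.46 ± 0.32 (SE, adjusted p = 0.0484), where 0.489% of all genes were called, and against MEF it rose by 1.80 (adjusted p = 0.0199) in mESC and 1.95 (adjusted p = 0.029) in the partial lines. The v6.5 libraries lay near MEF and the E14 libraries far above it. Pfkl was at 288 TPM in miPS, 347 and 320.3 TPM in E14, 243 and 226 TPM in v6.5, 162 and 147 TPM in the partial lines and 87.2 TPM in MEF and Pfkm at 21.1 TPM in miPS, 52.8 and 56.6 TPM in E14, 35.4 and 49.2 TPM in v6.5, 26.5 and 31.3 TPM in the partial lines and 19.3 TPM in MEF, with mESC against MEF differences of 1.37 (adjusted p = 0.0258) and 0.99 (adjusted p = 0.0478). Aldoa was at 2792 TPM in miPS, 2190.1 and 2008 TPM in E14, 2532 and 1838 TPM in v6.5, 1453 and 1128 TPM in the partial lines and 1307 TPM in MEF, and none of its comparisons passed the test.
In lower glycolysis 0 of 9 genes passed the test against MEF in mESC or in the partial lines. Ldhb was at 297 TPM in miPS, 779 and 843 TPM in E14, 407 and 408 TPM in v6.5, 6.02 and 111 TPM in the partial lines and 49.2 TPM in MEF. The 2 partial lines lay far apart, and its mESC against MEF difference of 3.26 ± 1.53 (SE, adjusted p = 0.152) had a wide error. Ldha was at 1505 TPM in miPS, 1275 and 1299 TPM in E14, 699 and 1265 TPM in v6.5, 1945 and 1685 TPM in the partial lines and 845 TPM in MEF, lower in mESC than in the partial lines, with a difference of -0.85 ± 0.24 (SE, adjusted p = 0.0444). Ldha over Ldhb was 5.07 in miPS, 1.54 to 3.10 in mESC, 323 and 15.2 in the partial lines and 17.2 in MEF. Eno1 was at 1807 TPM in miPS, 936 and 707 TPM in E14, 834 and 1225 TPM in v6.5, 1187 and 1113 TPM in the partial lines and 502 TPM in MEF and Eno2 at 10.2 TPM in miPS, 10.6 and 10.4 TPM in E14, 5.80 and 7.504 TPM in v6.5, 20.4 and 7.13 TPM in the partial lines and 15.3 TPM in MEF. Pkm2 had the highest level of all members in every library but MEF, at 2198 to 5414 TPM. In MEF it was at 1283 TPM and Aldoa at 1307 TPM. Gapdh ran from 382 TPM in MEF to 2368 TPM in a v6.5 library, and its replicates were far apart (1354 and 845 TPM in E14, 913 and 2368 TPM in v6.5, 1816 and 653 TPM in the partial lines). Pgam1 has an annotated pseudogene, Pgam1-ps2, which held 0.0562% and 0.0776% of their joint expected counts in E14 and 7.02% to 38.5% in the other libraries. Whether the counting, the line or the strain lies behind this was not tested. The E14 levels of Pgam1 therefore cannot be taken as on the same footing as the others.
Among the regulators, Pdk1 was at 92.3 TPM in miPS, 99.7 and 108 TPM in E14, 60.3 and 84.3 TPM in v6.5, 49.4 and 43.4 TPM in the partial lines and 7.37 TPM in MEF. It was lowest in MEF, with differences of 3.37 ± 0.37 (SE, adjusted p = 0.00299) for mESC against MEF, 2.58 ± 0.37 (SE, adjusted p = 0.00865) for partial against MEF and 0.79 ± 0.23 (SE, adjusted p = 0.0459) for mESC against partial. Pfkfb4 was at 5.32 TPM in miPS, 2.78 and 2.30 TPM in E14, 4.34 and 2.99 TPM in v6.5, 6.14 and 5.88 TPM in the partial lines and 10.6 TPM in MEF and highest in MEF, with -2.47 (adjusted p = 0.0124) in mESC. Pfkfb3 was at 11.1 TPM in miPS, 19.1 and 19.9 TPM in E14, 15.4 and 16.4 TPM in v6.5, 7.39 and 13.1 TPM in the partial lines and 9.78 TPM in MEF, and none of its comparisons passed the test.
The hypoxia response genes did not move as a block. P4ha1 was at 22.8 TPM in miPS, 46.8 and 51.8 TPM in E14, 12.4 and 37.5 TPM in v6.5, 22.4 and 35.8 TPM in the partial lines and 121 TPM in MEF and P4ha2 at 18.8 TPM in miPS, 16.6 and 15.6 TPM in E14, 14.7 and 16.7 TPM in v6.5, 5.50 and 7.27 TPM in the partial lines and 80.2 TPM in MEF. Both collagen prolyl hydroxylase subunits were highest in MEF. In mESC the differences from MEF were -2.16 (adjusted p = 0.0191) for P4ha1 and -2.87 (adjusted p = 0.00301) for P4ha2, and in the partial lines -2.29 (adjusted p = 0.0424) and -4.74 (adjusted p = 0.00254). P4ha2 also differed between mESC and the partial lines, by 1.88 (adjusted p = 0.00932). Adm was at 4.07 TPM in miPS, 6.34 and 5.48 TPM in E14, 4.65 and 6.94 TPM in v6.5, 0.527 and 0.535 TPM in the partial lines and 21.4 TPM in MEF. Its mESC against MEF difference was -2.21 ± 0.41 (SE, adjusted p = 0.0132). The 2 partial lines had 2 reads each, under the floor of 3 reads, and Adm passed the test against both MEF (adjusted p = 0.0033) and mESC (adjusted p = 0.00496), with a fitted size that depends on the prior count and is not given. Vegfa was at 65.1 TPM in miPS, 60.8 and 57.3 TPM in E14, 58.9 and 43.9 TPM in v6.5, 12.1 and 50.6 TPM in the partial lines and 189.8 TPM in MEF, highest in MEF, and its mESC against MEF difference of -2.10 ± 0.70 (SE, adjusted p = 0.068) missed the threshold. Egln3 was at 30.4 TPM in miPS, 32.1 and 28.5 TPM in E14, 16.7 and 29.3 TPM in v6.5, 36.1 and 85.3 TPM in the partial lines and 5.66 TPM in MEF, with 3.25 (adjusted p = 0.0268) for partial against MEF and -1.33 (adjusted p = 0.0412) for mESC against partial. Mxi1 was at 26.7 TPM in miPS, 39.2 and 41.3 TPM in E14, 17.7 and 24.3 TPM in v6.5, 48.8 and 43.9 TPM in the partial lines and 7.96 TPM in MEF, and the 3 differences were 1.63 (adjusted p = 0.0228) for mESC against MEF, 2.46 (adjusted p = 0.0135) for partial against MEF and -0.83 (adjusted p = 0.0454) for mESC against partial. Ddit4 was at 151 TPM in miPS, 124 and 88.4 TPM in E14, 198 and 111 TPM in v6.5, 31.4 and 27.5 TPM in the partial lines and 91.4 TPM in MEF, lowest in the partial lines, with 2.01 (adjusted p = 0.0153) for mESC against partial. Bnip3 was at 63.7 TPM in miPS, 113 and 127 TPM in E14, 25.2 and 117 TPM in v6.5, 38.1 and 23.1 TPM in the partial lines and 15.2 TPM in MEF, and its replicates in v6.5 were as far apart as the lines. Kdm3a was at 43.7 TPM in miPS, 61.1 and 76.5 TPM in E14, 14.3 and 38.6 TPM in v6.5, 24.8 and 54.2 TPM in the partial lines and 8.55 TPM in MEF, with 1.85 (adjusted p = 0.0903) for mESC against MEF. Ndrg1 was at 27.8 TPM in miPS, 25.0 and 22.7 TPM in E14, 13.98 and 20.2 TPM in v6.5, 22.6 and 98.7 TPM in the partial lines and 31.4 TPM in MEF. The line 11.5/MCV8 alone stood high. The rest of the hypoxia response genes, Ankrd37, Car9, Egln1, Ero1l and Higd1a, passed 0 tests in the 5 comparisons.
The first v6.5 library was at least 2-fold below the second in 5 of 38 members (Bnip3, Ero1l, Kdm3a, P4ha1 and Gapdh), against 18.7% of all genes tested, a share no higher than in the rest of the table. Without it the mESC against MEF count was 21, and without either E14 library it was 4. Without an E14 library the partial against MEF count was 4 and without a v6.5 library 17. The mESC against partial count was 3 or 4 without an E14 library, 16 or 18 without a v6.5 library and 5 without either partial line.
At miPS against mESC 0 of 38 members passed the test, by edgeR and by DESeq2, where 0.0298% of all genes did, and 2 of 38 had an unadjusted p below 0.05, as did 7.95% of all genes, so the members' share was no higher than the background. The 2 were Eno1, at 1807 TPM in miPS against 707 to 1225 TPM in mESC (1.11 ± 0.27 (SE, adjusted p = 0.384)), and Pfkm, at 21.1 TPM in miPS against 35.4 to 56.6 TPM in mESC (-1.06 ± 0.29 (SE, adjusted p = 0.445)). Pfkfb4, at 5.32 TPM in miPS against 2.30 to 4.34 TPM in mESC (0.94), and Ldhb, at 297 TPM in miPS against 407 to 843 TPM in mESC (-0.84), followed. These 4 were picked among members whose miPS library lay outside the range of the 4 mESC libraries, so that trait was fixed by the choice. A p above the threshold does not show that the lines were alike. At E14 against v6.5 the single call, Pfkp, became 0 calls without either E14 library or either partial line, and 10 without the second v6.5 library.

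The other genes of these pathways were looked up from lists of 37 further genes of glucose metabolism, 10 genes of the HIF machinery and 38 further hypoxia targets. At day 6 against day 3, 9 of 36 further hypoxia targets tested rose and 1 fell, as did 3 and 0 of 28 further genes of glucose metabolism, and 2 and 0 of 10 genes of the HIF machinery, where 3.03% of all genes rose and 2.73% fell. Anxa2, an annexin, was at 37.3, 19.3, 89.0 and 68.5 FPKM with hairpin A, 32.1, 20.1, 80.0 and 78.4 FPKM with hairpin B and 35.1, 18.2, 95.7 and 83.0 FPKM with the scrambled hairpin, with a difference of 2.14 (adjusted p = 6.4e-05). Pygl, liver glycogen phosphorylase, was at 1.65, 0.829, 6.31 and 5.79 FPKM with hairpin A, 0.507, 0.804, 4.64 and 3.95 FPKM with hairpin B and 1.96, 1.34, 9.45 and 7.76 FPKM with the scrambled hairpin. Days 6 and 9 were above days 0 and 3 in each culture, and the day 6 against day 3 difference was 1.93 (adjusted p = 0.00497). Gys1, glycogen synthase, rose by 1.37 (adjusted p = 0.00466), and Loxl2, a collagen crosslinking enzyme, by 2.12 (adjusted p = 0.0148). Vhl, which recognises hydroxylated HIF, and Cited2, an inhibitor of HIF transactivation, rose by 0.73 (adjusted p = 0.0285) and 0.83 (adjusted p = 0.036), while Mif, a cytokine, changed by -0.58 (adjusted p = 0.0383).
At day 3 against day 0, 2 of 36 further hypoxia targets rose and 5 fell, where 3.26% of all genes rose and 2.78% fell, and Lox, lysyl oxidase, had the largest difference. It was at 14.6, 0.172, 0.418 and 0.514 FPKM with hairpin A, 17.4, 0.229, 0.271 and 0.147 FPKM with hairpin B and 14, 0.230, 0.334 and 0.579 FPKM with the scrambled hairpin, with a difference of -3.75 (adjusted p = 5.71e-06), and only the day 0 libraries were above 1 FPKM. The 7 fibroblast markers summed to 11.3 to 18.4 FPKM at day 3 and 49.1 to 56.6 FPKM at day 0, with 1 or 2 of them at 0 at day 3, and their part in the fall of Lox was not tested. In the 1 library of day 9 with the scrambled hairpin they summed to 149.9 FPKM, and Lox was at 0.579 FPKM. Whether these markers came from the same kind of cell at days 0 and 9 was not tested either. G6pdx and Pgd, which start the pentose phosphate branch, rose by 0.70 (adjusted p = 0.0269) and 0.69 (adjusted p = 0.0264), and Pgam2, the muscle phosphoglycerate mutase, fell, with a difference of -1.21 (adjusted p = 0.0299). Hif3a rose by 0.83 (adjusted p = 0.0367), and Bhlhe41, a transcriptional repressor, by 1.47 (adjusted p = 0.0141). At day 9 against day 0, 9 of 36 further hypoxia targets rose and 6 fell, with 4 and 1 of 28 in glucose metabolism and 1 and 0 of 10 in the HIF machinery. The shares over all genes were 10.3% and 6.22%, and the counts in glucose metabolism and the machinery are near or below them. Eno3, the muscle enolase, was at 6.89, 18.1, 38.05 and 42.3 FPKM with hairpin A, 8.02, 14.2, 21.9 and 11.3 FPKM with hairpin B and 6.78, 17.6, 42.9 and 51.9 FPKM with the scrambled hairpin. It rose by 1.89 (adjusted p = 0.0297), least with hairpin B. At day 6 against day 0 the counts were 5 and 4, 5 and 0, and 2 and 1 in the same order (4.97% and 3.71% of all genes), and at day 9 against day 6 and in the depletion comparisons they were 0 throughout by limma.
In the discovery set, 4 further hypoxia targets of 34 tested were higher and 9 lower at mESC against MEF, with 5 and 3 of 29 in glucose metabolism and 1 and 1 of 10 in the HIF machinery. Over all genes 13.2% were higher and 15.4% lower, and apart from the 9 hypoxia targets that were lower these counts are near or below that background. Hif3a, a HIF subunit, was at 9.77, 7.28, 8.92 and 14.6 TPM in the mESC libraries, 1.23 and 1.23 TPM in the partial lines and 1.10 TPM in MEF, and its mESC against MEF difference was 4.28 (adjusted p = 0.00318). Epas1 (HIF2A) was at 13.2, 11.4, 13.3 and 5.92 TPM in the mESC libraries, 64.7 and 168 TPM in the partial lines and 1.88 TPM in MEF, with 5.77 (adjusted p = 0.0165) for partial against MEF. Cited2 was at 43.5, 27.6, 114 and 86.1 TPM in the mESC libraries, 19.99 and 34.3 TPM in the partial lines and 148 TPM in MEF, with -2.60 (adjusted p = 0.0165) for partial against MEF. Slc16a1 (MCT1), a lactate transporter, was at 86.7, 91.5, 137 and 121 TPM in the mESC libraries, 178 and 141 TPM in the partial lines and 24.0 TPM in MEF, with 2.55 (adjusted p = 0.012) for partial against MEF. Loxl2 was at 15.4, 16.5, 12.4 and 19.3 TPM in the mESC libraries, 3.92 and 11.8 TPM in the partial lines and 585 TPM in MEF, with -5.58 (adjusted p = 0.00181) for mESC against MEF. Partial against MEF had 1 and 7 further hypoxia targets higher and lower, 1 and 1 in glucose metabolism and 1 and 1 in the machinery (4.95% and 8.87% of all genes), and mESC against partial had 7 and 5, 6 and 3, and 1 and 1 (16.1% and 13.6% of all genes). At E14 against v6.5 the only call was Pmaip1, a p53 target and mediator of cell death, which was lower in E14 (-2.62 (adjusted p = 0.0484)), and at miPS against mESC there were 0.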

How the data were processed

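Poly(A) RNA libraries were made from 12 time course and 8 discovery samples. For the time course the authors deposited FPKM. The submitters' processing notes name TopHat 1.14, Bowtie 0.12.7, Cufflinks 1.3.0 and mm9. The deposited ratio columns equalled ratios of (FPKM + 1) to within 1.42e-06. For the discovery set the authors deposited expected counts and TPM, for which the same notes name TopHat 1.3, RSEM and mm9. Neither the annotation version nor the use of strand is stated, so overlapping genes cannot be separated. Of the discovery entries 343 held no values, and 16 columns of FPKM bounds were not used. Both tables had been expected to hold RPKM values.

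FPKM were tested with limma 3.58.1 (R 4.3.3) on log2(FPKM + 1), which understates the change of low genes, keeping the 14108 genes that reached 1 FPKM in 2 or more libraries. Days were compared across cultures in a fit of day and depletion (7 residual degrees of freedom), and depletion within days in 8 groups (4). Expected counts were rounded to whole numbers and tested with edgeR 4.0.16 (TMM, quasi-likelihood) in 5 groups (3 residual degrees of freedom), keeping the 16773 genes that reached 1 CPM in 2 or more libraries. The mESC effect was the mean of E14 and v6.5. P-values were two-sided and adjusted by Benjamini-Hochberg over all genes tested, with a threshold of 0.05. Both procedures were run on simulated data with known changes. The noise of each simulated library was independent and none stood apart, so that run does not cover the likeness within cultures or the hairpin B libraries. The 3-read floor was 0.270 to 0.442 FPKM for a gene of 1 kb and 0.127 to 0.398 CPM, for counting error only.

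Culture pairs the time course libraries, since each is 1 cell line. Deviations from the day means correlated at -0.0910 to 0.642 within cultures. Alternatives were a pseudocount of 0.1, no filter, upper-quartile scaling, a culture block, DESeq2 1.42.0 (also its size factors in edgeR), limma on TPM, and leaving out each replicate or the hairpin B libraries that stood apart. Members with values in every library were up to 10 called per comparison by size of the log2 difference, up to 4 where none was called, and the isoform families. Where none was called, the choice was limited to members with 1 direction in both hairpins (depletion) or in every pair of libraries compared (others). The members and lists were chosen with earlier results of these data known.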

Additional observations from a re-analysis of the deposited data

Results flagged for a closer look

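In 2 members the E14 and v6.5 libraries lay on opposite sides of the line they were compared with. The difference between the 2 stem cell lines, in which the line they are compared with cancels, was tested at E14 against v6.5 by edgeR. Hk1 was higher than MEF in both E14 libraries, by 0.77 on average on the log2(TPM + 1) scale, and lower than MEF in both v6.5 libraries, at -0.43, and its E14 against v6.5 difference of 1.40 ± 0.26 (SE, adjusted p = 0.0818) missed the threshold. Pfkp was higher than both partial lines in the E14 libraries, by 1.21, and lower than both in the v6.5 libraries, at -1.34, and its E14 against v6.5 difference of 2.46 ± 0.32 (SE, adjusted p = 0.0484) passed it. The E14 and v6.5 cells differ in strain, and the line and the strain cannot be told apart.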

How the results depend on the processing

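Single differences were followed under the alternatives only for chosen members, up to 10 called per comparison by size and up to 4 where none was called. Of these values 622 kept their direction and side of the threshold, and 150 kept the direction and lost the call. A further 8 gained a call and 0 reversed. The choice took large differences and, where none was called, 1 direction in the libraries compared. The lack of reversals was therefore largely fixed by the choice, and it does not cover the other members. The counts of members called depended most on which culture or line was left out. At day 3 against day 0 (6 members) leaving out a culture gave 0 to 22, at day 6 against day 3 (14) 0 to 27, at day 9 against day 6 (0) 0 to 18, at day 6 against day 0 (8) 0 to 24 and at day 9 against day 0 (8) 0 to 28, with 0 without hairpin A or the scrambled hairpin and the highest counts without hairpin B. Without the hairpin B libraries of days 6 and 9 the counts were 13 (day 3 against day 0), 9 (day 9 against day 6), 22 (day 6 against day 0) and 25 (day 9 against day 0). Without its day 0 library, chosen after seeing the data, they were 11 at day 3 against day 0 and 2 at day 9 against day 0. Culture as a replicate block moved day 9 against day 0 to 15 and no other count by over 1.5 times. Leaving out a library gave 4 to 21 members at mESC against MEF (13; lowest without an E14 library, highest without the first v6.5 library), 4 to 17 at partial against MEF (10), 3 to 18 at mESC against partial (9) and 0 to 10 at E14 against v6.5 (1). DESeq2 called 21 at mESC against MEF, 14 at mESC against partial and 2 at E14 against v6.5. With no filter the counts were 21 at mESC against MEF and 2 at E14 against v6.5, where limma on TPM gave 3. The E14 and v6.5 libraries share only a number, and a replicate block on it gave 11, 11, 6, 0 and 1 members at mESC against MEF, partial against MEF, mESC against partial, miPS against mESC and E14 against v6.5. Depletion and miPS against mESC had 0 members called under every alternative run, and the depletion fits without a hairpin compare 1 library with 1. Apart from the depletion fits, the share of all genes called under these alternatives is not given. A change in a count is therefore not a result about the members in particular. The causes of these changes were not tested. Single libraries per day and culture, and 1 library of MEF and miPS, limit what can be called, and low members such as Car9, Pfkfb4 and Adm rest on few reads.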
